A study of Mus musculus with 9 samples.

Results

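Adenosine and the nucleotides it is made from were followed here through the transcripts of 6 mouse genes, of 23234 listed for every library. They encode the Gs-coupled adenosine receptors (Adora2a, Adora2b), the surface enzymes CD39 and CD73 (Entpd1, Nt5e), and the enzymes adenosine deaminase and adenosine kinase (Ada, Adk). The set was picked because Adora2b was lower with IFN-γ, so the values of these genes in IFN-γ against IL-33 are a description and carry no test. ILC2s (group 2 innate lymphoid cells), lymphocytes without antigen receptors that live in tissues and secrete IL-5 and IL-13, were taken from lymphoid clusters of the fat of wild-type C57BL/6 mice, of unstated age and sex. They were held for 48 h in 1 of 3 conditions, with 3 libraries each: IL-33 at 10 ng/ml, the same with IFN-γ at 10 ng/ml, or the same with IL-27 at 10 ng/ml. All cells therefore received IL-33, an alarmin that activates ILC2s, and there was no culture without it. IL-27 belongs to the IL-12 family, and IFN-γ is the interferon made by type 1 lymphocytes.

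Cells release ATP when stressed or damaged. CD39 cuts ATP and ADP to AMP, and CD73 cuts AMP to adenosine, which acts on receptors of neighbouring cells. The receptors encoded by Adora2a and Adora2b both couple to the stimulatory G protein and raise cAMP, the former at lower adenosine concentrations than the latter. Adenosine is removed by adenosine deaminase, which turns it into inosine, or inside the cell by adenosine kinase, which returns it to AMP.

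The depth limits what could be seen. The steps between low values put each library at about 880000 to 970000 fragments, and 10504 to 11004 genes reached 1 FPKM, the unit of all levels here (fragments per kilobase of transcript, scaled to the mapped fragments). Of 12 ILC2 markers, Gata3 was at 161 to 348 FPKM, Il1rl1 at 253 to 976, Rora at 26.5 to 77.6 and Il7r at 17.5 to 66.6. The 12 summed to 14860.5 to 22458 FPKM with IL-33, 6009 to 9428 with IFN-γ and 12313 to 13106 with IL-27, mostly from Il5 and Il13. Means were lower with IFN-γ than with IL-33 for Il5, Il13, Il2ra (380 against 928 FPKM), Il1rl1 (330 against 569) and Il7r (30.3 against 41.1). They were higher for Gata3, Rora, Thy1, Icos, Ptprc and Id2, and close for Klrg1 (214 against 215). The summed level of 9 fibroblast markers was 36.2 to 86.5 FPKM in the libraries numbered 3 and 3.10 to 17.6 FPKM in the others. The summed level of 7 T cell markers was 82 to 105 FPKM in the libraries numbered 3 and 34.0 to 49.0 FPKM in the others, most of it from Cd3g (28.4 to 97.6 FPKM), with Cd3e at most 2.51 FPKM and Cd4 at 0 throughout. Of the B cell markers, Cd79b was at 20.3 to 83.9 FPKM and Pax5 at 0 in all 9 libraries. Macrophage and dendritic cell markers summed to 1.16 to 19.5 FPKM, with Cd68 at 1.16 to 18.8 FPKM and both Csf1r and Mrc1 at 0. Mast cell markers summed to 5.7 to 11.5 FPKM in the libraries numbered 3, mostly from Fcer1a, and at most 2.51 FPKM in the others, with Cma1 and Mcpt4 at 0. Adipocyte and endothelial markers summed to at most 1.34 FPKM each. In bulk RNA, fewer cells of a type and less RNA per cell cannot be told apart. The labels do not say that replicates were separate animals or cultures, so the p-values refer to library-to-library spread only, some of which may be technical.

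Adora2b, the receptor that needs more adenosine to respond, was lower in the cells that received IFN-γ. Its gene lies on the plus strand of chromosome 11 (mm9 chr11:62062486-62079955, ENSMUSG00000018500.2). With IL-33 alone its level was 28.5, 29.0 and 39.1 FPKM in replicates 1, 2 and 3 (32.2 ± 5.99, SD, n = 3). With IFN-γ the level was 2.46, 6.32 and 5.9 FPKM (4.89 ± 2.11), and with IL-27 it was 14.5, 14.2 and 15.9 FPKM (14.9 ± 0.914). The 3 groups did not overlap: every IL-33 library was highest, every IL-27 library was in the middle and every IFN-γ library was lowest. Of the 11014 genes tested, which averaged 1 FPKM or more over the libraries, 51 (0.463%) kept the 3 groups apart in that same order. Levels with IFN-γ were 6.58-fold below those with IL-33 as a ratio of mean FPKM. On the log2(FPKM + 1) scale used for all differences the mean fell by 2.55 ± 0.29 (SE), or 5.87-fold. Within pairs of libraries with the same number the log2 differences were -3.09, -2.03 and -2.54, and the mean was -2.56 without the libraries numbered 3.

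**Figure D1:**
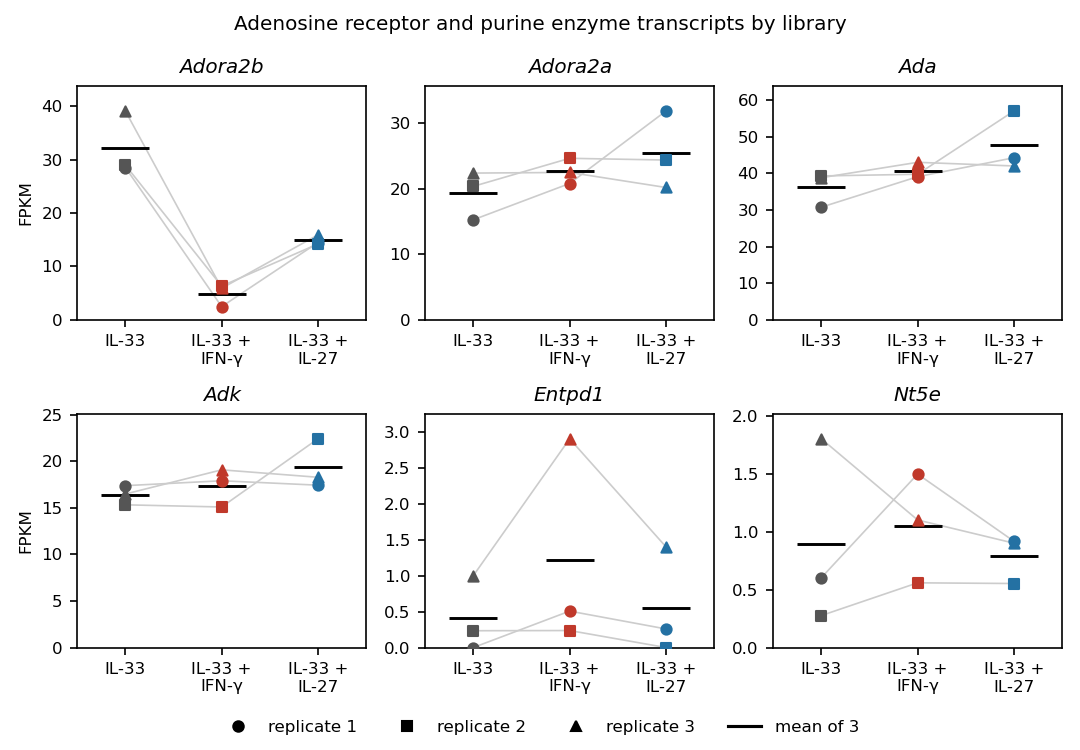
Level of each of the 6 genes in FPKM (linear axes starting at 0, a different range for each gene) in the 9 libraries, by condition; symbols are libraries (a shape for each replicate number, joined by grey lines) and the black bars are group means. The Adora2b libraries with IFN-γ sit at 2.46 to 6.32 FPKM, below all IL-27 libraries (14.2 to 15.9) and all IL-33 libraries (28.5 to 39.1), and the other 5 genes show no such order.

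With IL-27 the Adora2b level was between the others in all 3 pairs, with log2 differences from IL-33 of -0.93, -0.98 and -1.25. This comparison shares its IL-33 libraries with the one that chose the gene. A gene picked as high in those libraries can look lower with IL-27, so the interval and p-values here are a description. The mean difference was -1.05 ± 0.29 (95% interval -1.71 to -0.40, 2.07-fold lower) and did not pass the test across all genes (limma, two-sided, Benjamini-Hochberg adjusted p = 0.194). With the replicate number as a block, the adjusted p was 0.0477. Over all 20 alternatives the difference ranged from -1.13 to -0.895 and the adjusted p from 0.0477 to 0.475. Levels with IFN-γ were lower than with IL-27 in 3 of 3 pairs (log2 differences -2.16, -1.06 and -1.29; mean -1.50 ± 0.29, 2.83-fold), which is given without a test because the IFN-γ libraries chose the gene.

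Few fragments lay behind the low Adora2b values. The IFN-γ levels correspond to about 4, 11 and 10 fragments, against 47, 52 and 63 with IL-33 and 23, 25 and 26 with IL-27. The exact 95% Poisson intervals, which cover counting error only, were 0.664 to 6.24, 3.11 to 11.1 and 2.90 to 11.1 FPKM for the IFN-γ libraries. The lowest bound of an IL-33 library was 21.0 FPKM, above all of them. These values chose the gene, so that gap is a description and no test. The IL-27 intervals (9.0 to 21.3, 9.06 to 20.7 and 10.2 to 22.9 FPKM) all overlapped the upper ends of those of IFN-γ replicates 2 and 3. That of IL-27 replicate 1 overlapped the interval of IL-33 replicate 1 (21.0 to 38.0), that of IL-27 replicate 3 overlapped those of IL-33 replicates 1 and 2 (21.7 to 38.1), and that of IL-27 replicate 2 overlapped none with IL-33.

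**Figure D2:**
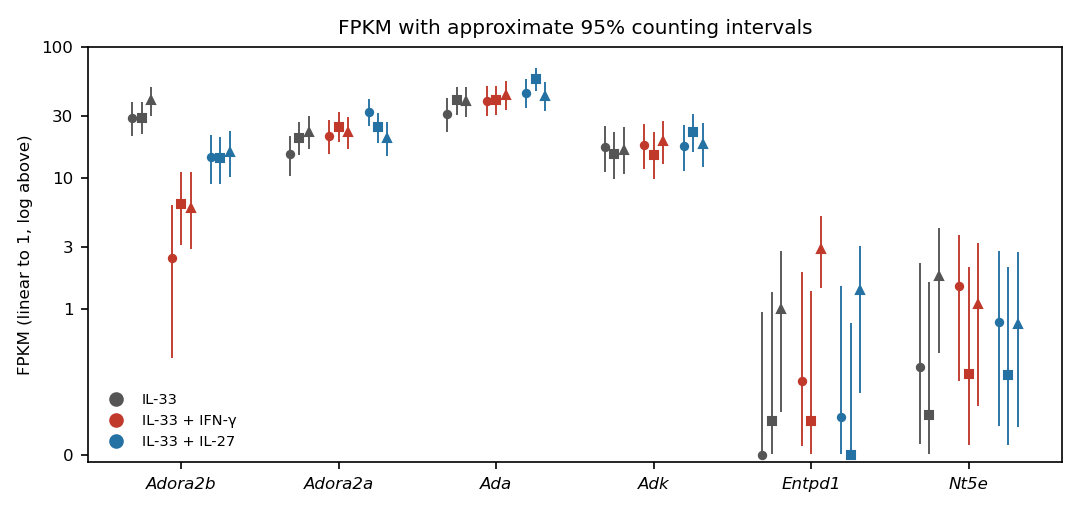
Level in FPKM of the genes in each library on an axis that is linear up to 1 FPKM and logarithmic above it; bars are exact Poisson 95% intervals of the estimated fragments, and shapes are replicate numbers. The Adora2b intervals of the IFN-γ libraries end at or below 11.1 FPKM while those of the IL-33 libraries begin at or above 21.0 FPKM, which describes the values that chose the gene. The bars of Entpd1 and Nt5e are wide for their level.

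Adora2a, the receptor with the higher affinity, had means with IFN-γ and IL-27 that were not below that with IL-33. Its gene lies on chromosome 10 (mm9 chr10:74779688-74797533, plus strand, ENSMUSG00000020178.5). Its level was 15.3, 20.4 and 22.4 FPKM with IL-33 (19.4 ± 3.67), 20.8, 24.7 and 22.5 FPKM with IFN-γ (22.7 ± 1.93) and 31.9, 24.4 and 20.2 FPKM with IL-27 (25.5 ± 5.91). These 3 groups overlapped, the widest spread being with IL-27. The difference from IL-33 was 0.23 ± 0.22 (log2) with IFN-γ. With IL-27 it was 0.37 ± 0.22 (95% interval -0.12 to 0.87, adjusted p = 0.682 by limma), with replicate 1 up by 1.01, replicate 2 up by 0.25 and replicate 3 at -0.14. IFN-γ differed from IL-27 by -0.14 ± 0.22 (adjusted p = 1). These intervals leave room for changes of up to 1.83-fold with IL-27, so a p above the threshold does not show equal levels.

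The balance of the receptor transcripts followed Adora2b. On the FPKM scale, which is per transcript length, the ratio of Adora2a to Adora2b was 0.536, 0.704 and 0.573 with IL-33 (0.604 ± 0.0884), so Adora2b was the more abundant receptor transcript in all 3 libraries. It was 8.45, 3.90 and 3.81 with IFN-γ (5.39 ± 2.65) and 2.20, 1.72 and 1.27 with IL-27 (1.73 ± 0.467), so Adora2a led in all 6. The ratio contains the Adora2b values that chose the genes, and it is given without a test. The sum of the receptors was 43.8 to 61.5 FPKM with IL-33, 23.3 to 31.0 with IFN-γ and 36.1 to 46.3 with IL-27, so a summed level was lower with IFN-γ in every library. The remaining adenosine receptors were at or near the detection limit, Adora1 being listed at 0 in all 9 libraries and Adora3 at 1.9 FPKM in IL-27 replicate 3 alone.

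**Figure D3:**
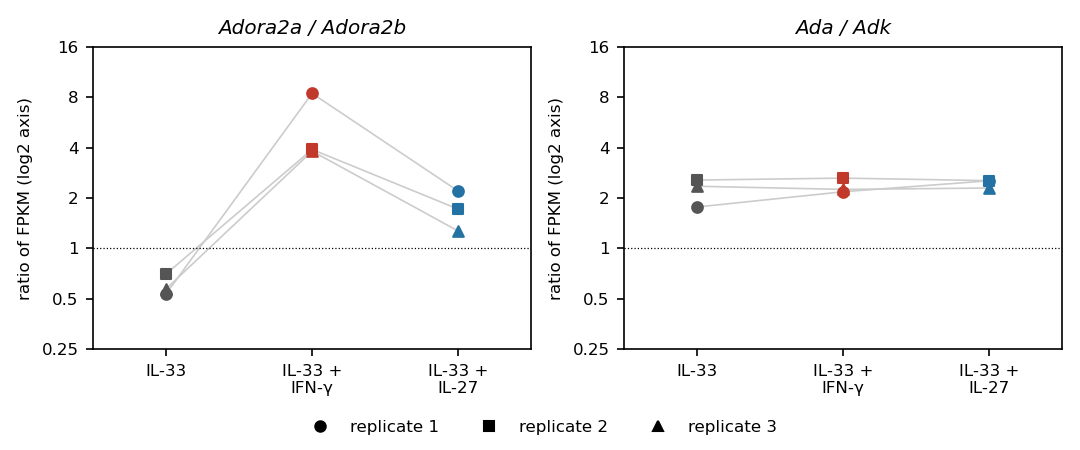
Ratio of Adora2a to Adora2b and of Ada to Adk (FPKM, log2 axis) in each of the 9 libraries by condition, with lines joining libraries of the same number. The receptor ratio is 0.536 to 0.704 with IL-33, 1.27 to 2.20 with IL-27 and 3.81 to 8.45 with IFN-γ, while the enzyme ratio lies between 1.77 and 2.63 in all 9.

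The promoter windows of RefSeq (build GRCm38.p6) were searched on both strands for short motifs. Of the 6 genes, 5 matched an entry, with 7 windows of 300 bases running from 250 before to 50 after the start of transcription. The window of Adora2b is shown for the gene whose level differed most, and that of Ada, the most abundant of the 6 genes, for comparison. Capitals mark matches of ACGTG or GCGTG, the core of the hypoxia-inducible factor site, since hypoxia is known to induce Adora2b in other cells. The Adora2b window lies at chr11:62248734-62249033 (plus strand) and that of Ada at chr2:163750190-163750489 (minus).
Adora2b: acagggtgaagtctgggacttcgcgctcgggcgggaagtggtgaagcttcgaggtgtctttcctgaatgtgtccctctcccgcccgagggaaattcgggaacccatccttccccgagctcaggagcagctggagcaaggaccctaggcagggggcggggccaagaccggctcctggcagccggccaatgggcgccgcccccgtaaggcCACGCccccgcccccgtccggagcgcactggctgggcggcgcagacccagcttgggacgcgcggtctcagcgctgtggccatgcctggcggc
Ada: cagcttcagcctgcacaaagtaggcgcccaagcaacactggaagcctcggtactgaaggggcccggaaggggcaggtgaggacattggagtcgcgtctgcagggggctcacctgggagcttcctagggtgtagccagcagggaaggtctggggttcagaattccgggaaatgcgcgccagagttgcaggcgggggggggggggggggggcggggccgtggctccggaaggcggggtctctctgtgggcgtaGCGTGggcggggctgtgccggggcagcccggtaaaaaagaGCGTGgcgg

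The Adora2b window held no match to the core of the interferon-stimulated response element (GAAA, any 2 bases, GAAA). It held 1 GCGTG match, on the minus strand at bases 209 to 213, 6 GC boxes (GGGCGG) and 1 CCAAT. The Ada window held 2 GCGTG matches, at bases 252 to 256 and 292 to 296, 2 GC boxes and 1 CCAAT. Across all 32851 windows of the table, the response element core occurred in 3.44%, GCGTG in 32.39%, ACGTG in 19.62%, the GC box in 35.66% and CCAAT in 37.41%. Of the 7 windows of the adenosine genes, 5 held GCGTG, 5 a GC box, 6 CCAAT and none the cAMP response element TGACGTCA (1.79% of all windows), the response element core or ACGTG. The ACGTG and GCGTG letters exclude each other at a position, and GC boxes may overlap GCGTG matches. A match is a description of letters, and its absence says only that these letters are not in this window.

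Transcripts of both enzymes that remove adenosine were present in every library. Ada lies on chromosome 2 (mm9 chr2:163552320-163575975, minus strand, ENSMUSG00000017697.3) and its level was 30.7, 39.3 and 38.8 FPKM with IL-33 (36.3 ± 4.79), 39.1, 39.7 and 43.0 FPKM after IFN-γ (40.6 ± 2.1) and 44.2, 57.0 and 42.0 with IL-27 (47.7 ± 8.09). The IL-27 libraries were all above the IL-33 libraries, and the IFN-γ libraries overlapped both groups. The difference from IL-33 was 0.17 ± 0.18 (log2) with IFN-γ. With IL-27 it was 0.38 ± 0.18 (95% interval -0.02 to 0.79, pairs 0.51, 0.53 and 0.11), which did not pass the test (limma adjusted p = 0.555, and 0.175 to 0.833 over the alternatives).

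Adk, on chromosome 14 (mm9 chr14:21871855-22267769, plus strand, ENSMUSG00000039197.8), measured 17.4, 15.3 and 16.5 FPKM with IL-33 (16.4 ± 1.03), 17.9, 15.1 and 19.1 FPKM after IFN-γ (17.4 ± 2.05) and 17.5, 22.4 and 18.3 with IL-27 (19.4 ± 2.67). The lowest IL-27 library was only just above the highest IL-33 library, and the IFN-γ libraries overlapped both. The difference from IL-33 was 0.07 ± 0.19 (log2) with IFN-γ and 0.22 ± 0.19 with IL-27 (95% interval -0.19 to 0.64, limma adjusted p = 0.784). Ada exceeded Adk in every library, by 1.77 to 2.56 times with IL-33, 2.18 to 2.63 times with IFN-γ and 2.30 to 2.54 times with IL-27. These ranges overlapped, so the balance between the disposal enzymes did not separate the conditions. Their sum was 48.1 to 55.3, 54.8 to 62.1 and 60.3 to 79.4 FPKM in that order. Neither enzyme differed between IFN-γ and IL-27 past the test (Ada -0.22 ± 0.18 and Adk -0.15 ± 0.19, adjusted p = 1 for both by limma).

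The enzymes that make adenosine outside the cell were close to the detection limit. Entpd1 lies on chromosome 19 (mm9 chr19:40686856-40816092, plus strand, ENSMUSG00000048120.10) and its level was 0, 0.233 and 1.0 FPKM with IL-33, 0.506, 0.236 and 2.9 FPKM after IFN-γ and 0.258, 0 and 1.4 with IL-27. The 2 libraries listed at 0 allow up to 0.981 and 0.903 FPKM by the 95% counting interval. Replicate 3 was highest in every condition, and the summed fibroblast markers were 36.2, 86.5 and 63.7 FPKM in those same libraries, in the same order as the Entpd1 values. Whether other cells had a part in the Entpd1 level was not tested. Nt5e, on chromosome 9 (mm9 chr9:88222447-88266927, plus strand, ENSMUSG00000032420.6), measured 0.602, 0.276 and 1.8 FPKM with IL-33, 1.5, 0.558 and 1.1 FPKM after IFN-γ and 0.917, 0.552 and 0.9 with IL-27. All 3 conditions overlapped for both genes. These levels rest on 0 to 11 fragments a library for Entpd1 and 1 to 6 for Nt5e. Means of 0.726 and 0.911 FPKM placed both genes below the filter of 1 FPKM, so they were fitted only in the alternative with no filter. There, IL-27 differed from IL-33 by 0.10 ± 0.49 (log2, 95% interval -1.02 to 1.22) for Entpd1 and by -0.01 ± 0.32 (-0.72 to 0.71) for Nt5e, with an adjusted p of 1 for both by limma. The differences with IFN-γ were 0.52 ± 0.49 and 0.17 ± 0.32. The intervals are wide on this scale and leave room for changes in either direction.

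The pseudogenes Gm16027 and Gm8783 lie inside Entpd1 and a 7SK RNA lies inside Adk, each on the same strand as the gene around it. None of them has a level of its own here. The labels do not say that counting used the strand, and strand could not separate their reads from those of Entpd1 or Adk.

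Of the 4 adenosine genes tested, 1 (Adora2b, lower) was called with IFN-γ, beside 2.91% of all genes called, 2.19% higher and 0.717% lower. Nothing is read from that count, because this comparison chose the genes. With IL-27 against IL-33, 0 of the 4 were called (1.03% of all genes, 0.908% higher and 0.118% lower), and 1 (Adora2b) with the replicate number as a block (5.15%). Nothing is read from that 1 either, because its IL-33 libraries also chose the gene. Between IFN-γ and IL-27 limma called 0 of 4 and 0 of all 11014 genes (0%). In that comparison 483 genes (4.39% of those tested) had an unadjusted p under 0.05, which is no more than that threshold itself allows. In the blocked fit 1254 genes (11.4%) did, which is more than it allows. That fit called 20 (0.182%), with 0 of the 4 among them. Groups that did not overlap were found for Adora2b alone in IFN-γ against IL-33 (lower, as in 8.65% of all genes) and in IFN-γ against IL-27 (lower, as in 4.03%). With IL-27 against IL-33, Ada and Adk were higher without overlap, as were 8.29% of all genes, and Adora2b was lower, as were 5.72%. The median log2 difference of the 4 was 0.12, 0.30 and -0.18, against 0.03, 0.01 and 0.01 over all genes.

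Around these genes, 126 more in 8 lists were read, of which 91 were tested. Of the 91, 17 belong to the cAMP machinery downstream of the receptors and 12 to genes known to respond to cAMP. The others belong to purine and nucleotide lists. With IFN-γ, 3 of the 91 were called higher and 1 lower (4.4%, against 2.91% of all genes). With IL-27 1 was called higher (1.1%, against 1.03%). The gene called with IL-27 was Icam1, of the cAMP-responsive list, which was also among the 3 higher with IFN-γ. Between IFN-γ and IL-27 0 of 91 were called. With the replicate number as a block, the counts were 8 higher and 7 lower with IFN-γ (16.5% of the 91, against 11.2% of all genes) and 5 higher and 3 lower with IL-27 (8.79%, against 5.15%).

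Of 15 genes named as P2X or P2Y receptors, a family that includes receptors for ATP and other nucleotides, 7 were tested. With IFN-γ 1 passed (14.3%, against 2.91% of all genes), and with IL-27 none did (1.03% of all genes). A place on the list by name does not show that a receptor responds to nucleotides. P2ry2, a receptor for ATP and UTP, measured 4.36, 5.99 and 5.4 FPKM with IL-33 (5.25 ± 0.825), against 1.81, 1.01 and 0.3 FPKM with IFN-γ (1.04 ± 0.754). The groups did not overlap, and the level fell by 1.68 ± 0.38 on the log2 scale (limma adjusted p = 0.0480, and 0.0176 with the replicate number as a block). Without the block, that call held in only 1 of the 9 fits that left out a single library, the one without IL-27 replicate 3. Without each of the other 8 the adjusted p was 0.0529 to 0.154. Without all 3 libraries numbered 3 it was 0.176, and 0.107 with the block. With IL-27 P2ry2 averaged 1.97 ± 0.851 FPKM (adjusted p = 0.337). The most abundant receptors of the list, P2ry10 (mean 30.01 FPKM with IL-33, 22.0 with IFN-γ and 56.4 with IL-27) and P2rx4 (16.4, 20.6 and 16.4 FPKM), did not pass the test in any comparison.

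Among 30 tested genes of purine salvage and breakdown, 2 rose with IFN-γ (6.67%, against 2.91% of all genes called) and 0 passed with IL-27 (1.03% of all genes). With the replicate number as a block, 5 were called higher and 2 lower with IFN-γ (23.3%, against 11.2% of all genes). That fit called 3 higher with IL-27 (10%, against 5.15%). Nt5c3 was among them in both comparisons (limma adjusted p = 0.0251 and 0.0200). It encodes a nucleotidase, and its place on the list does not show that it acts on purines. Xdh, which encodes xanthine dehydrogenase and acts downstream of the inosine that Ada makes, measured 0.928, 1.91 and 2.7 FPKM with IL-33 (1.85 ± 0.888), against 7.37, 13.5 and 32.7 FPKM with IFN-γ (17.9 ± 13.2). It rose by 2.54 ± 0.50 (log2, limma adjusted p = 0.0254, 0.000966 with the block). Without IL-33 replicate 1 or 2 the adjusted p was 0.0905 or 0.0793, and without IFN-γ replicate 2 or 3 it was 0.0807 or 0.0715. Without all 3 libraries numbered 3 it was 0.0581, and 0.0174 with the block. With IL-27 Xdh was at 6.82, 8.72 and 15.6 FPKM (10.4 ± 4.62, adjusted p = 0.138, and 0.00491 with the replicate number as a block).

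Samhd1, which breaks down deoxynucleoside triphosphates, measured 24.02, 41.2 and 94.6 FPKM with IL-33 (53.3 ± 36.8), against 170, 242 and 509 FPKM with IFN-γ (307 ± 179). It rose by 2.57 ± 0.56 (log2, limma adjusted p = 0.0422, 1.06e-05 with the block). Leaving out single libraries ended that call in 6 of 9 cases: IL-33 replicates 1 and 2 (0.13 each), IFN-γ replicates 1, 2 and 3 (0.0559, 0.108 and 0.144) and IL-27 replicate 2 (0.0724). Without all 3 libraries numbered 3 it was 0.0212. With IL-27 its mean was 218 ± 121 FPKM (adjusted p = 0.176, 5.19e-05 with the block). Xdh and Samhd1 were highest, within each group, in the libraries numbered 3. So were the summed fibroblast, T cell and mast cell markers, and also Gata3 and Il1rl1. Without these libraries the log2 difference with IFN-γ was 2.65 for Samhd1 and 2.22 for Xdh. The part of other cells in the result was not tested. Aprt, which salvages adenine, was the most abundant of the list (251, 226 and 221 FPKM) and was not called. Pnp and Pnp2, which act on inosine, are near-identical copies and their reads may have been split between them.

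Purine synthesis de novo was tested in all 15 genes and none passed without the block. The log2 difference from IL-33 was negative for 12 with IFN-γ and 14 with IL-27 (medians -0.30 and -0.38). It was negative for 5226 and 5343 of all 11014 genes. Both comparisons use the same IL-33 libraries. Impdh2, the step toward guanine nucleotides, averaged 212 FPKM with IL-33, 169 with IFN-γ and 149 with IL-27, and Paics 145, 145 and 140 FPKM. With the replicate number as a block, 3 of the 15 were called lower with IL-27 (20%, against 5.15% of all genes), namely Impdh2 (adjusted p = 0.0378), Atic (0.0491) and Mthfd2 (0.0420). With IFN-γ that fit called Mthfd2 lower (0.0201) and Prps2 higher (0.0245), or 13.3% against 11.2%.

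Of 12 listed surface enzymes 2 were tested and none passed. Cd38, which consumes NAD at the surface, averaged 7.78, 11.5 and 11.4 FPKM (adjusted p = 0.541 and 0.774 against IL-33). Acpp, an acid phosphatase that can cut AMP, averaged 3.72, 4.21 and 3.85 FPKM (adjusted p = 0.969 and 0.992). Of 11 transporters and release channels 8 were tested and none passed, including the equilibrative nucleoside transporter Slc29a1 (32.4, 28.4 and 29.6 FPKM) and the channel Panx1, through which ATP can leave cells (13.4, 14.6 and 12.4 FPKM).

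Downstream of both receptors, 17 of 23 G protein, cyclase, kinase and phosphodiesterase genes were tested and none passed without the block. With the replicate number as a block, 3 were called with IFN-γ (17.6%, against 11.2% of all genes): Prkacb, a catalytic subunit of protein kinase A, higher (adjusted p = 0.0109), and Adcy7, an adenylyl cyclase, and Pde4a, a phosphodiesterase, lower (0.0385 and 0.0389). With IL-27 that fit called 1, Prkacb, higher (0.0447), or 5.88% against 5.15% of all genes. Gnas, the stimulatory G protein subunit that both receptors use, averaged 700, 698 and 755 FPKM in the order IL-33, IFN-γ, IL-27, and Gnai2, an inhibitory subunit, 262, 304 and 328 FPKM. Of 12 tested genes known to respond to cAMP, 1 rose in each comparison with IL-33 and it was the same gene. That is 8.33% in each, against 2.91% of all genes called with IFN-γ and 1.03% with IL-27. Icam1, an adhesion molecule that also responds to other signals, interferon among them, measured 28.3, 25.5 and 21.5 FPKM with IL-33 (25.1 ± 3.42), 101, 83.1 and 95.1 FPKM after IFN-γ (93.1 ± 9.23) and 78.6, 54.7 and 44.1 with IL-27 (59.1 ± 17.7). It rose by 1.85 ± 0.22 (log2) with IFN-γ (limma adjusted p = 0.00216) and this call was kept in all 9 omissions. With IL-27 Icam1 rose by 1.17 ± 0.22 (limma adjusted p = 0.0445, and 0.00528 with the block). Without the block, that call was kept only without IL-27 replicate 3 (0.0461), the other 8 omissions giving 0.0655 to 0.159. Without all 3 libraries numbered 3 it was 0.105, and 0.0251 with the block. Rgs1, the most abundant gene of that list, averaged 267, 318 and 402 FPKM and was not called. The blocked fit added Fosl2, lower with IFN-γ (adjusted p = 0.0164), for 16.7% of the 12 against 11.2% of all genes.

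**Figure D4:**
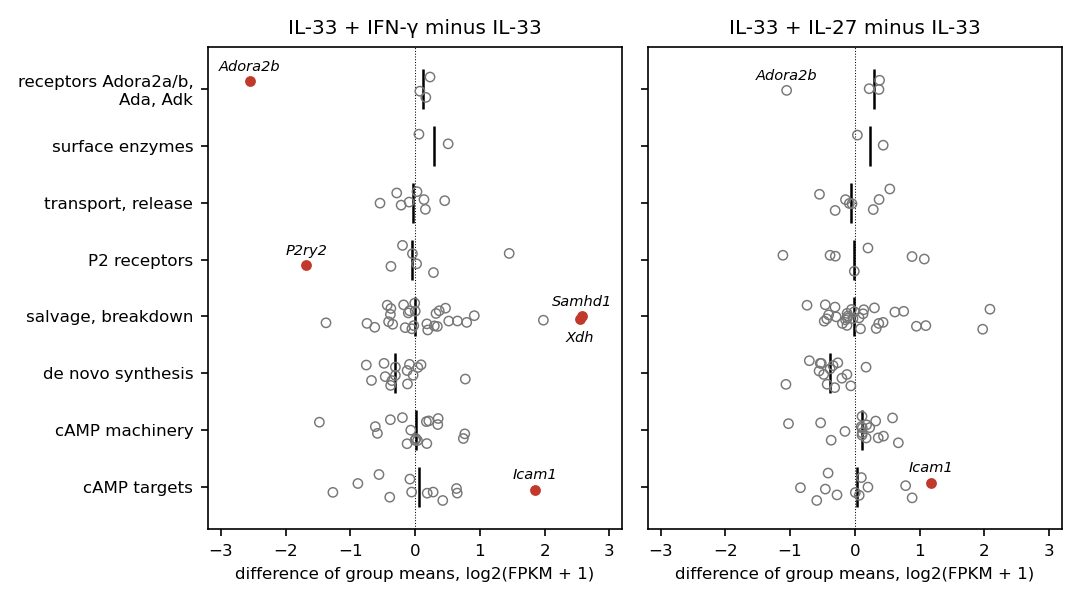
Difference of group means in log2(FPKM + 1) for the 4 tested adenosine genes (top row) and each tested gene of the other purine and cAMP lists, in IFN-γ against IL-33 and IL-27 against IL-33. Each point is a gene, black bars are list medians, and filled red points are called genes. Xdh, Samhd1 and Icam1 lie to the right with IFN-γ (2.54, 2.57 and 1.85) and P2ry2 to the left (-1.68), Icam1 lies to the right with IL-27 (1.17), and most points of the de novo list lie left of 0 without a call.

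The genes with the profile most like that of Adora2b over the 9 libraries were sought among the 8436 tested genes that averaged 5 FPKM or more. Likeness was the root mean square distance between log2(FPKM + 1) profiles centred on their own means, where the median gene was at 1.14. Tnfrsf8, the CD30 receptor, was closest at 0.352, followed by Scd2, a fatty acid desaturase, at 0.425 and Lilrb4, an inhibitory receptor, at 0.449. Hist1h4i (0.462), Slc16a3, a lactate exporter (0.472), and the laminin chain Lama5 (0.492) came next. All 6 had their highest mean with IL-33 and their lowest with IFN-γ. Tnfrsf8 averaged 89.8, 11.1 and 40.9 FPKM in the order IL-33, IFN-γ, IL-27, and Slc16a3 averaged 340, 119 and 204 FPKM. These genes were ranked on the measured likeness itself, so the distances are a description.

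**Figure D5:**
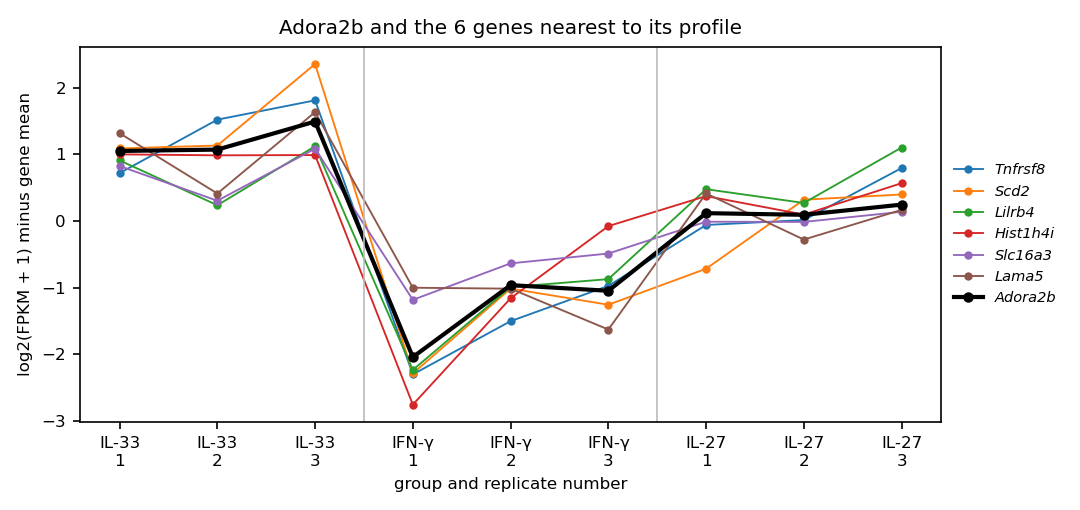
Centred log2(FPKM + 1) of Adora2b and of the 6 genes with the smallest root mean square distance to it, in each of the 9 libraries grouped by condition. The black line is Adora2b. Each of the 7 genes has its highest mean with IL-33 and its lowest with IFN-γ, and the distances run from 0.352 for Tnfrsf8 to 0.492 for Lama5.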

How the data were processed

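RNA sequencing of cultured mouse ILC2s gave 1 table per library, 9 in all. Per the submitters' processing notes, the tools were TopHat2 2.0.8, Bowtie2 2.1.0 and Cufflinks 2.1.1, with genome build mm9; parameters and the gene annotation are not given in the sources used here. The deposited values are FPKM made by the authors. The unit was inferred from Cufflinks being named and from the values. Tables numbered 3 hold 1 decimal, with commas grouping digits, which were removed. Positions are from GENCODE vM1 (mm9), which may differ from the authors' gene models. Fragments were estimated from the steps between low values and annotated lengths, so they and the 95% exact Poisson intervals are approximate.

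Values were analysed as log2(FPKM + 1), which understates changes of low genes. The 11014 genes that averaged 1 FPKM or more were tested in all 3 groups together with limma 3.58.1 (lmFit, contrasts.fit, eBayes with trend, two-sided, no covariate) in R 4.3.3. P-values were adjusted over all tested genes (Benjamini-Hochberg, adjusted p under 0.05 is called). Equal replicate numbers were taken to pair libraries, because deviations from group means correlated at 0.128 to 0.367 in all 9 same-number pairs and at -0.298 to -0.0251 in the other 18. Deviations sum to 0 within a group, so these ranges are not independent of each other. A shared batch and a shared cell preparation cannot be told apart here. A second fit had the replicate number as a block.

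The 6 genes and the lists were chosen with earlier results of these data known. Named genes were all 6, the called genes of each other list (at most 4), the 2 most abundant tested genes of each list, and the 6 nearest in profile to Adora2b. Alternatives changed the pseudocount, the filter, the scaling, the trend, the groups fitted, the block and the libraries. Tables were read with Python 3.11.15 and pandas 2.3.3.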

Additional observations from a re-analysis of the deposited data

How the results depend on the processing

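In IFN-γ against IL-33, which chose the adenosine genes, and for Adora2b against IL-27, values under the alternatives are a description and nothing is read from them. There, a pseudocount of 5 moved Adora2b to -1.92 and -1.03, since a larger pseudocount shrinks differences of low values. In IL-27 against IL-33, 0 of the 4 tested adenosine genes were called in 19 of the 20 alternatives. With the replicate number as a block 1 was called, Adora2b, and the block changed no other call of these 4. The call of Adora2b uses the IL-33 libraries that chose the gene, so nothing is read from it. Without single libraries the Adora2b difference with IL-27 was -1.13 to -0.91.

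The calls among the genes of the other lists, cAMP genes included, with IFN-γ (4) became 15 with the replicate block, 1 without a filter or with only the groups compared, 2 without the libraries numbered 3, and 1 to 4 without single libraries. With IL-27 (1) they became 8 with the block, 4 with the block and without the libraries numbered 3, and 0 with a pseudocount of 5, no filter, either other scaling, only the groups compared, no trend or without the libraries numbered 3; without single libraries they were 0 to 1. Between IFN-γ and IL-27 they were 0 throughout. All genes called went from 320 to 1230 with the block and 176 without the libraries numbered 3 (IFN-γ), from 113 to 567, 68 and, with both, 188 (IL-27; 69 with only the groups compared), and from 0 to 20 with the block between IFN-γ and IL-27. Single omissions gave 161 to 303 and 50 to 128. More genes are tested without a filter, and fewer libraries enter with omissions or only the groups compared; otherwise the cause was not tested. The 8 calls with IL-27 in the blocked fit were Xdh, Samhd1, Nt5c3, Prkacb and Icam1, higher, and Impdh2, Atic and Mthfd2, lower. Scaling moved the median of all genes by under 0.1. Entpd1 and Nt5e, at 0 to 11 fragments a library, were fitted only without the filter and have wide intervals.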

Other observations

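Some other genes of the purine and cAMP lists did not pass the test without the block but had groups that did not overlap. Of all 91 tested, called genes included, 14 lay higher and 10 lower without overlap with IFN-γ, as did 1312 and 953 of all 11014 genes. The called Xdh, Samhd1, Icam1 and P2ry2 are among those counted. With IL-27 the counts were 9 and 6, against 913 and 630. Nothing is read from the separation itself. The genes below were chosen after their values were seen, and Ak3, Entpd4 and Adcy3 were likewise apart from IL-33 in both comparisons. Pde4a, a phosphodiesterase that degrades cAMP, measured 4.38, 2.09 and 3.1 FPKM with IL-33, against 0.256, 0.478 and 0.7 FPKM with IFN-γ (log2 difference -1.48 ± 0.39, limma adjusted p = 0.0838, and 0.0389 with the replicate number as a block). With IL-27 it measured 0.523, 0.838 and 1.9 FPKM (-1.02 ± 0.39, adjusted p = 0.405). All libraries with IFN-γ and with IL-27 were below all 3 IL-33 libraries. Gda, the guanine deaminase, measured 1.18, 1.07 and 1.1 FPKM with IL-33, against 1.99, 3.25 and 4.0 FPKM with IFN-γ and 4.19, 3.41 and 2.0 FPKM with IL-27 (adjusted p = 0.219 and 0.348). Ampd3, an AMP deaminase, measured 1.31, 1.68 and 1.5 FPKM with IL-33, against 4.43, 2.18 and 3.7 FPKM with IFN-γ and 5.32, 3.36 and 4.5 FPKM with IL-27 (adjusted p = 0.244 and 0.192). Both comparisons use the same IL-33 libraries.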
